A study of Homo sapiens with 9 samples.

Results

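Interferon response genes are the transcripts that cells switch on when an interferon reaches them. The set described here holds 37 genes, taken from a list of symbols. Of these, 36 had a probe set annotated to 1 gene symbol and were among the 19775 genes tested, and STAT2 was not analysed here. For each gene the brightest probe set, on average over the 9 arrays, was used.

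The RNA came from HepG2 cells, a human liver cancer line in wide use that still makes plasma proteins as hepatocytes do, measured on Affymetrix 3′ expression arrays. One group of 3 arrays came from cells exposed for 24 h to 100 nM GW7647, a compound that activates PPARα, the nuclear receptor behind fatty acid oxidation in liver. Another 3 came from cells exposed to the same dose for 6 h, and the last 3 from cells given the DMSO vehicle. All 3 groups share 1 cell line, and the labels mention no virus and no added interferon. The vehicle group is the same for both times, and the sources used here do not give how long it lasted, so time with the agonist and time in culture cannot be told apart. The labels do not say that replicates were separate cultures, so every p-value measures the spread between these arrays, which may be technical, and 3 arrays per group limit the precision.

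Type I and type III interferons signal through Janus kinases to a transcription factor complex that contains IRF9 and binds a DNA element called the ISRE. Interferon γ acts mainly through another element, the GAS. The genes behind these elements encode sensors of viral RNA, enzymes and GTPases that block viral replication, membrane proteins that hinder viral entry or release, and the machinery that presents peptides on class I molecules. Hepatocytes answer both kinds of interferon, and in liver this programme is best known from infection with hepatitis viruses.

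The promoters of the members that passed a test below are shown because the ISRE and GAS letters stand in them in different numbers and order. The search took the ISRE as GAAA, any 2 bases and GAAA, and the GAS as TTC, any 3 bases and GAA, on both strands, in the 300 bases from 250 before to 50 after each RefSeq gene start (GRCh38.p14). Capitals mark matches that lie wholly before the gene start, and each sequence runs 5′ to 3′ on the strand of the gene. Below them stand IFI6 and B2M, which passed no test on the probe sets reported here.
IFIT1, chr10:89392492-89392544, plus strand: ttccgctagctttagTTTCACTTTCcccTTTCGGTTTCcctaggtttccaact
IFIT5, chr10:89414508-89414567, plus strand: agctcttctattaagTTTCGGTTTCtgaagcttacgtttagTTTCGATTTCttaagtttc
IFITM1, chr11:313985-314039, plus strand: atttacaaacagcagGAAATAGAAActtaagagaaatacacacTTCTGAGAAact
BST2, chr19:17405665-17405781, minus strand: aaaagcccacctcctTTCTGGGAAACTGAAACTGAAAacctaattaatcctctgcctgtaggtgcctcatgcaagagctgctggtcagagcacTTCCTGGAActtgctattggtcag
ISG15, chr1:1013369-1013414, plus strand: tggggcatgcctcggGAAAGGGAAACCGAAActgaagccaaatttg
IFI35, chr17:43006747-43006783, plus strand: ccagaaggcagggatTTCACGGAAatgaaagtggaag
IFI6, chr1:27672261-27672363, minus strand: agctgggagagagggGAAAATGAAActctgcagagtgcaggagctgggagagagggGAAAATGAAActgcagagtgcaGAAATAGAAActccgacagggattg
B2M, chr15:44711358-44711403, plus strand: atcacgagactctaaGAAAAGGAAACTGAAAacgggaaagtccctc

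Of the 36 measured members, 28 had a promoter in the RefSeq table, and MX2 and TRIM22 were among the 8 that did not match. The ISRE letters stood in 21 of the 28 (75.0%), counting a gene with a match in any of its promoters, against 3.99% of 15382 genes on the array counted the same way and 3.57% of the 35116 single promoters in the table. The GAS letters stood in 10 of the 28 (35.7%), against 8.97% of the genes and 7.66% of the promoters. Matches of the 2 elements overlapped at 5 distinct places, as at the left end of the BST2 sequence. Among members that passed a test below, 5 of 6 promoters held the ISRE letters, and IFI35, whose sequence shows only the GAS letters, was the other. Among members that passed none, 16 of 22 held them, IFI6 with 3 copies and B2M with 2 overlapping copies. A direct repeat that PPARα and its partner RXR bind, AGGTCA, any 1 base and AGGTCA on either strand, stood in 0 of the 28, in 0.0325% of the genes and in 0.0228% of the promoters. These exact letters are so rare that 0 of 28 was likely for any genes, so this search cannot tell whether the members hold PPARα sites. A match describes the letters and is not evidence that a factor binds there.

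Signals of the members covered most of the array's range, with means from 3.62 to 12.99 log2 units. Of the 36, 21 lay above and 15 below the median gene, which stood at 6.74, and a signal is not compared between genes because probe sets differ in how brightly they report. Across genes, which are not independent replicates, the signals correlated at r = 0.997 to 0.999 in 9 pairs within a group and at 0.995 to 0.998 in 27 pairs between groups. The 8 measured hepatocyte markers all lay above the median gene, ALB at a mean of 14.77. Of these 8, the coagulation protein FGB and the carrier protein TTR were lower at 24 h, by log2 changes of -0.67 and -0.55 against vehicle (adjusted p = 6.87e-05 and 0.00116 by limma) and -0.54 and -0.46 against 6 h, calls that held in all 9 fits that left out 1 array. These 2 were 25% of the 8, against 2.80% of all genes lower than in vehicle and 4.57% lower than at 6 h. The other 6 did not pass in any comparison. Their log2 changes at 24 h against vehicle were -0.04 for ALB, -0.12 for AFP, -0.06 for APOB, 0.02 for APOA1, 0.08 for TF and 0.10 for SERPINA1. The 24 h arrays of TF and SERPINA1 lay above all vehicle arrays, and those of AFP below. The part of FGB and TTR in the members' changes at 24 h was not tested. Of 15 measured markers of immune, endothelial and stromal cells, 10 lay below the median gene, PTPRC at 4.26 and CDH5 at 3.63, and LYZ was the highest at 11.93. The mean of these 15 was 6.08 to 6.13 log2 units in 24 h arrays, 6.12 in all 6 h arrays and 6.08 to 6.14 in vehicle arrays. Of the 15, none passed at 24 h against vehicle, while CD14, a monocyte marker that lay above the median gene at 7.70, was lower at 6 h (-0.29, adjusted p = 0.0159) and 0.28 higher at 24 h than at 6 h (adjusted p = 0.00674). The 6 h call did not hold without vehicle replicate 3 or any 1 of the 6 h arrays (adjusted p as high as 0.0693). The part of CD14 in the members' changes was not tested. In bulk RNA, fewer cells with a transcript and less of it per cell cannot be told apart.

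After 24 h of GW7647, 5 of the 36 interferon response genes were higher than in vehicle, 2 were lower and 29 did not pass. The 5 were IFIT1 and IFIT5, which bind viral RNA, the GTPase MX2, the membrane protein IFITM1 and IFI35. The 2 were TRIM22, a ubiquitin ligase with antiviral activity, and ISG15, a ubiquitin-like protein that is joined to other proteins. Passing means an adjusted p under 0.05 in limma's moderated test, with Benjamini-Hochberg adjustment over all 19775 genes. The members higher were 13.9% of the set against 5.38% of all genes, and the members lower were 5.56% against 2.80%. At an unadjusted p under 0.05 the members were 10 (27.8%) against 21.2% of all genes. The median log2 change of the members was 0.034 against 0.0034 for all genes, and the median size of a change 0.098 against 0.082. At an adjusted p under 0.01 there were IFI35 higher and TRIM22 lower, against 2.43% and 1.09% of all genes. The 5 higher became 2 without vehicle replicate 3 and 3 without vehicle replicate 1, 24 h replicate 2, or either of 6 h replicates 2 and 3. The 2 lower became 1 without vehicle replicate 2 or 3, or without replicate 1 or 3 of either exposed group.

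After 6 h, 0 of the 36 were higher and 0 were lower, against 1.64% and 1.91% of all genes in the limma test. At an unadjusted p under 0.05 there were 2 members (5.56%), TRIM21 and TRIM22, against 16.3% of all genes. The smallest adjusted p of a member was 0.121. Their median log2 change was -0.0019 against 0.0039 for all genes, and the median size of a change 0.062 against 0.074. At an adjusted p under 0.01 there were again 0 and 0, against 0.617% and 0.566%.

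Between 24 h and 6 h, 5 of the 36 were higher at 24 h and 1 was lower, and 30 did not pass. These were 13.9% of the set against 9.23% of all genes, and 2.78% against 4.57%. IFIT1, MX2, IFITM1 and IFI35 passed against both 6 h and vehicle, and BST2, which tethers budding virus to the cell, passed against 6 h. TRIM22 was the member lower. At an unadjusted p under 0.05 there were 11 members (30.6%) against 25.9% of all genes. At an adjusted p under 0.01 there were MX2 and IFI35 higher and TRIM22 lower, against 4.64% and 2.08% of all genes. The 5 higher became 2 without 6 h replicate 2 or 3 and 3 without 24 h replicate 3, and the 1 lower became 2 without 24 h replicate 2, B2M being added (adjusted p = 0.0416). The 24 h arrays enter both comparisons and the vehicle arrays enter both comparisons with vehicle, so the calls are not independent. In all, 8 members passed in at least 1 comparison and 28 in none. The share of all genes that passed in at least 1 comparison was not computed, so the 8 cannot be set against it.

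**Figure D1:**
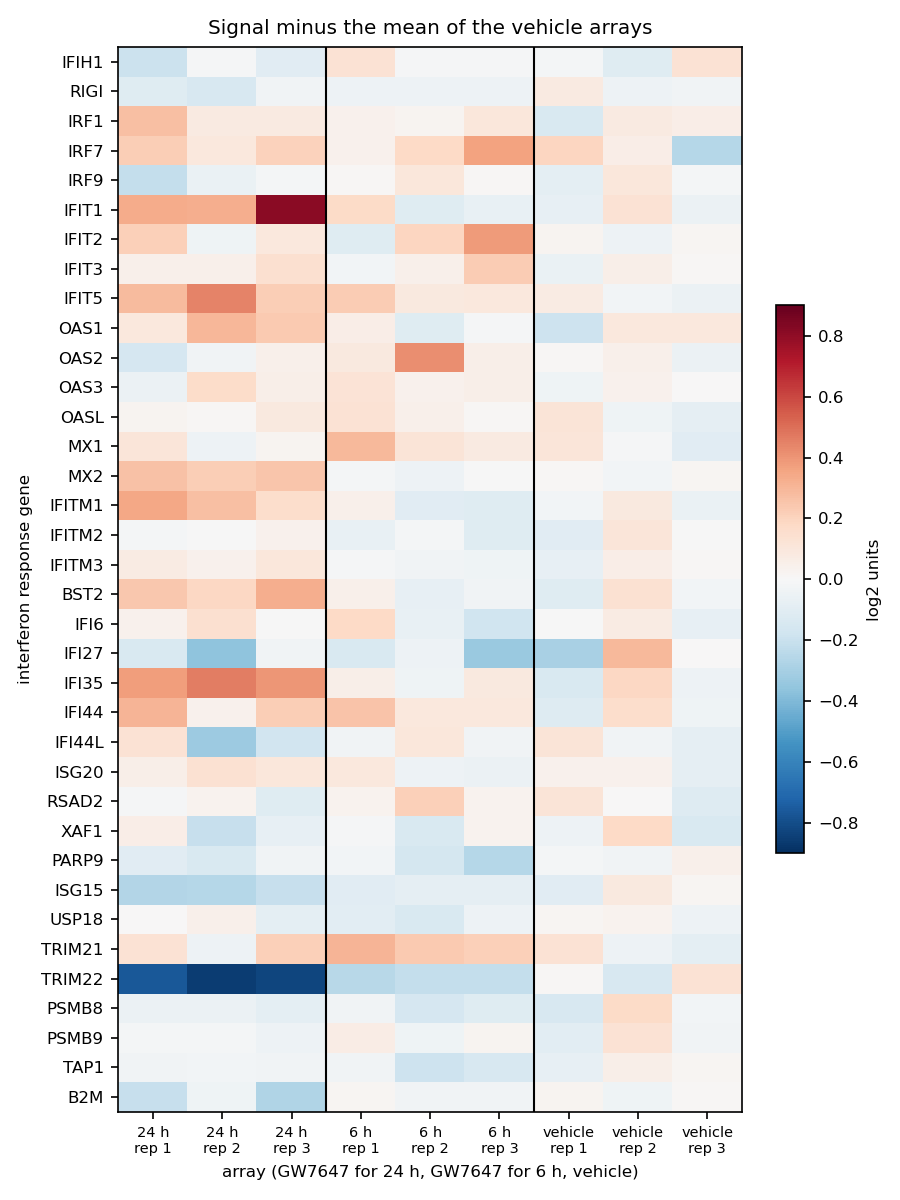
Each row is an interferon response gene and each column an array, coloured by its log2 signal minus the mean of the 3 vehicle arrays. The 24 h columns are red for IFIT1, MX2, IFITM1, BST2 and IFI35, whose mean changes run from 0.24 to 0.49, and deep blue for TRIM22 at -0.81.

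The IFIT proteins bind viral RNA that lacks the marks of host messages. IFIT1 read 4.75, 4.75 and 5.23 log2 units in the 24 h arrays, 4.59, 4.31 and 4.35 in the 6 h arrays, and 4.34, 4.55 and 4.36 in the vehicle arrays. All 24 h arrays lay above all others, with replicate 3 well above its companions, while 6 h and vehicle arrays overlapped. The mean of IFIT1 over the 9 arrays, 4.58, lay below the median gene at 6.74. The difference of 24 h against vehicle was 1.41-fold (95% confidence interval 1.16 to 1.70, adjusted p = 0.0367 by limma), and that against 6 h was 1.41-fold (1.16 to 1.71, adjusted p = 0.0240). IFIT1 did not pass against vehicle without vehicle replicates 1 or 3, 6 h replicates 2 or 3, or 24 h replicate 3 (adjusted p as high as 0.120), nor against 6 h without 6 h replicates 2 or 3, or 24 h replicate 3 (up to 0.105).

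IFIT5 read 8.25, 8.41 and 8.19 at 24 h, 8.20, 8.05 and 8.06 at 6 h, and 8.04, 7.94 and 7.92 in vehicle. Its 24 h arrays lay above all vehicle arrays and overlapped the 6 h arrays, which lay between. Against vehicle it was 1.25-fold higher at 24 h (1.12 to 1.39, adjusted p = 0.0212 by limma), and at 6 h its log2 change was 0.14 ± 0.07 (SE, adjusted p = 0.379). The call did not hold without vehicle replicates 2 or 3, or 24 h replicate 2 (adjusted p as high as 0.0752). Its second probe set had a log2 change of 0.36 at 24 h (adjusted p = 0.0880 over every probe set).

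IFIT2, which like IFIT1 binds viral RNA, and IFIT3, which stabilises IFIT1, did not pass on the probe sets reported. Their log2 changes at 24 h were 0.09 ± 0.11 for IFIT2 and 0.08 ± 0.07 for IFIT3 (SE, adjusted p = 0.706 and 0.580). All 4 IFIT genes had a positive log2 change at 24 h, as had 20 of the 36 members. Of the 4, 2 passed, while 5.38% of all genes were called higher. The dimmer of the IFIT3 probe sets read otherwise, with 6.14, 6.16 and 6.17 log2 units at 24 h, 5.70, 5.19 and 5.62 at 6 h, and 5.75, 5.52 and 5.90 in vehicle. On it the 24 h arrays stood above all others, by 0.65 log2 units against 6 h (adjusted p = 0.00782 over every probe set) and by 0.43 against vehicle (adjusted p = 0.0748). The 2 probe sets of IFIT3 therefore disagree. Their mean was 0.32 log2 units higher at 24 h than at 6 h (adjusted p = 0.0163 by limma). Over every probe set, 3.37% were called higher and 2.30% lower at 24 h against vehicle, 0.905% and 1.13% at 6 h, and 6.20% and 3.51% at 24 h against 6 h.

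The MX proteins are dynamin-like GTPases that trap viral components. MX2, which restricts HIV, read 9.56, 9.52 and 9.55 at 24 h, 9.28, 9.25 and 9.29 at 6 h, and 9.31, 9.27 and 9.31 in vehicle. The 24 h arrays formed a tight group above the rest, and 6 h and vehicle arrays overlapped. MX2 was 1.18-fold higher at 24 h than in vehicle (1.10 to 1.28, adjusted p = 0.0116 by limma) and 1.20-fold higher than at 6 h (1.12 to 1.30, adjusted p = 0.00454). Both calls held in all 9 fits that left out 1 array. MX1, which acts on influenza viruses, did not pass, with log2 changes of 0.03 ± 0.08 at 24 h and 0.16 ± 0.08 at 6 h (SE).

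The membrane proteins of the set block fusion of viral and cell membranes in the case of the IFITM proteins and hold back newly formed virus in the case of BST2. IFITM1 read 8.29, 8.21 and 8.10 at 24 h, 7.98, 7.83 and 7.83 at 6 h, and 7.91, 8.02 and 7.87 in vehicle. Its 24 h arrays lay above all others. It was 1.20-fold higher than in vehicle (1.08 to 1.34, adjusted p = 0.0442 by limma) and 1.25-fold higher than at 6 h (1.12 to 1.39, adjusted p = 0.0120). The call against vehicle did not hold without vehicle replicates 1 or 3, any 1 of the 6 h arrays or 24 h replicate 1 or 2 (adjusted p as high as 0.144), nor after quantile normalization (0.0647). The call against 6 h did not hold without 6 h replicate 2 or 3 (up to 0.0582).

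BST2 read 9.31, 9.25 and 9.39 at 24 h, 9.11, 8.99 and 9.03 at 6 h, and 8.96, 9.20 and 9.04 in vehicle. The 3 arrays at 24 h lay above all others, vehicle replicate 2 coming nearest. It was 1.21-fold higher at 24 h than at 6 h (1.08 to 1.35, adjusted p = 0.0286 by limma), and against vehicle its log2 change of 0.25 ± 0.07 (SE) had an adjusted p of 0.0579. Against vehicle it passed without vehicle replicate 2 (0.32, adjusted p = 0.0174). It also passed there with an intensity trend (0.0242), among genes above the median signal (0.0199) and after median centring (0.0450). With every gene as the mean of its probe sets it passed too (0.0478). Against 6 h it did not pass without 6 h replicates 2 or 3, or 24 h replicate 1 or 3 (up to 0.114), nor after quantile normalization (0.0923).

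IFITM2 read 11.33, 11.34 and 11.39 at 24 h, 11.28, 11.33 and 11.24 at 6 h, and 11.24, 11.46 and 11.34 in vehicle, and these groups overlapped. IFITM3, best known for blocking influenza virus in endosomes, read 11.999, 11.96 and 12.02 at 24 h, 11.91, 11.89 and 11.88 at 6 h, and 11.85, 11.98 and 11.93 in vehicle. Its 24 h arrays lay above the 6 h arrays and overlapped the vehicle arrays, and its log2 change of 0.07 ± 0.05 against vehicle did not pass (SE). The probe sets of all 3 IFITM genes carry an ending that marks probes shared between transcripts, and these genes are close copies of one another, so which of them a signal belongs to is uncertain. All 4 membrane proteins had a positive log2 change at 24 h, from 0.0047 to 0.26, of which 1 passed. At 6 h all 4 had a negative one, from -0.06 to -0.02, of which 0 passed. Over the 36 members, 20 changes were positive at 24 h and 19 negative at 6 h. With probes that may be shared, the 3 IFITM genes are not separate readings.

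**Figure D2:**
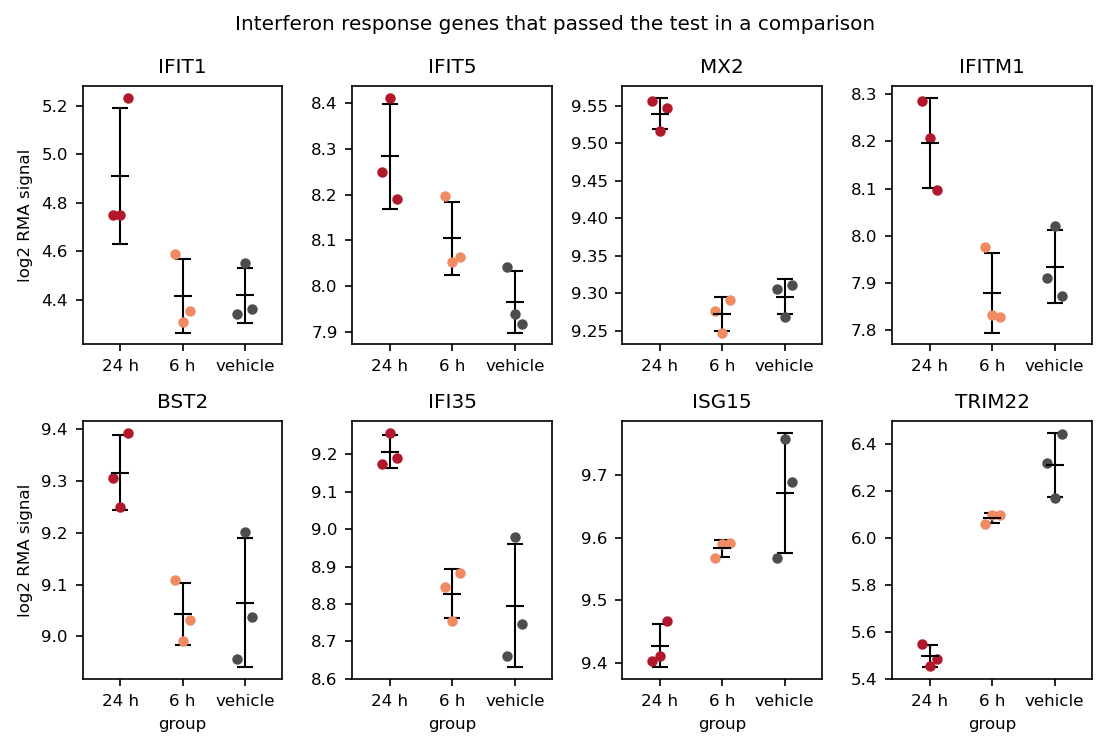
Points are the log2 RMA signals of single arrays for the 8 interferon response genes that passed in at least 1 comparison, with the group mean and 1 SD as bars (n = 3). The 24 h arrays lie above the vehicle arrays for the 6 genes from IFIT1 to IFI35 and below them for ISG15 and TRIM22. The vertical axes differ between genes and do not start at 0.

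The 9 further effectors take in the IFI genes, ISG20, RSAD2, XAF1 and PARP9. IFI35, a cytosolic protein that interacts with NMI, read 9.17, 9.26 and 9.19 at 24 h, 8.85, 8.75 and 8.88 at 6 h, and 8.66, 8.98 and 8.75 in vehicle. Every 24 h array lay above every other array, and the vehicle arrays were the most scattered. IFI35 was 1.33-fold higher at 24 h than in vehicle (1.18 to 1.50, adjusted p = 0.00906 by limma) and 1.30-fold higher than at 6 h (1.15 to 1.47, adjusted p = 0.00891). Both calls held in all 9 fits that left out 1 array. Its 1 probe set has shared probes, as do those of IFIT5, IFITM1, ISG15 and TRIM22.

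The other 8 effectors did not pass in any comparison. RSAD2 (viperin), which makes a nucleotide that ends viral RNA chains, had a log2 change of -0.03 ± 0.08 at 24 h (SE, adjusted p = 0.873). IFI6, a membrane protein strongly induced by type I interferon, had 0.06 ± 0.09 (adjusted p = 0.769), and the nuclease ISG20 had 0.10 ± 0.06 (adjusted p = 0.415). IFI44 had 0.19 ± 0.09, IFI44L had -0.12 ± 0.10 and IFI27 had -0.18 ± 0.14 on probe sets with mean signals of 3.73, 3.62 and 4.72. XAF1, which promotes cell death, had -0.07 ± 0.09, and PARP9, an ADP-ribosylating enzyme, had -0.09 ± 0.07. All 3 PARP9 arrays at 24 h lay below all vehicle arrays.

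The OAS enzymes make a short nucleotide that activates RNase L, and OASL is a relative without that activity. Their log2 changes at 24 h ran from -0.05 to 0.21 and 0 of 4 passed, and at 6 h 0 of 4 passed. OAS1 had the largest of these changes, and read 6.32, 6.53 and 6.46 log2 units at 24 h, 6.28, 6.12 and 6.22 at 6 h, and 6.04, 6.32 and 6.32 in vehicle. Its 24 h arrays overlapped the vehicle arrays, and its log2 change was 0.21 ± 0.09 (SE, adjusted p = 0.197 by limma). OAS2 read 5.12 on 6 h replicate 2 and 4.79 and 4.75 on the other 6 h arrays, and its log2 change at 6 h was 0.18 ± 0.09 (adjusted p = 0.361). OAS3 and OASL had log2 changes at 24 h of 0.06 ± 0.06 and 0.04 ± 0.06. A second OAS1 probe set showed no rise, with group means of 6.08 at 24 h and 6.10 in vehicle. On a second OAS3 probe set the 24 h arrays read 6.22, 6.27 and 6.10, below the vehicle arrays, which each read 6.32. Neither of these second sets passed in any comparison.

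ISG15 is joined to target proteins, and USP18 removes it again and also dampens signalling at the type I receptor. ISG15 read 9.40, 9.41 and 9.47 at 24 h, 9.57, 9.59 and 9.59 at 6 h, and 9.57, 9.76 and 9.69 in vehicle. The 24 h arrays lay below all others. The fall against vehicle was 1.18-fold (1.08 to 1.30, adjusted p = 0.0298 by limma), opposite in direction to IFIT1, whose promoter also holds the ISRE letters. It did not pass without vehicle replicates 2 or 3, 6 h replicates 1 or 3, or any 1 of the 24 h arrays (adjusted p as high as 0.0884), and against 6 h the log2 change of -0.16 ± 0.06 (SE) did not pass (adjusted p = 0.121). Against 6 h ISG15 passed among genes above the median signal (adjusted p = 0.0443) and after quantile normalization (-0.21, adjusted p = 0.0318). USP18 had a log2 change of -0.01 ± 0.06 at 24 h (adjusted p = 0.927).

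TRIM22 had the largest change of any member. It read 5.55, 5.46 and 5.48 at 24 h, 6.06, 6.10 and 6.10 at 6 h, and 6.32, 6.17 and 6.44 in vehicle. The 3 groups did not overlap, with 24 h lowest and vehicle highest. TRIM22 fell 1.76-fold at 24 h (1.58 to 1.96, adjusted p = 5.48e-05 by limma), and at 24 h it was 1.50-fold lower than at 6 h (1.35 to 1.67, adjusted p = 3.42e-04). Both calls held in all 9 fits that left out 1 array. At 6 h its log2 change of -0.23 ± 0.07 (SE) did not pass (adjusted p = 0.121), except without vehicle replicate 2 (-0.30, adjusted p = 0.0319).

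TRIM21, a cytosolic antibody receptor and ubiquitin ligase, read 6.78, 6.60 and 6.86 at 24 h, 6.95, 6.88 and 6.86 at 6 h, and 6.78, 6.60 and 6.56 in vehicle. The 6 h arrays lay above the vehicle arrays without passing, at a log2 change of 0.25 ± 0.08 (SE, adjusted p = 0.128 by limma). The 3 arrays at 24 h overlapped both, and their log2 change was 0.10 ± 0.08.

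The sensors and transcription factors at the head of the programme did not pass. RIGI and IFIH1 (MDA5), helicases that detect viral RNA, had log2 changes at 24 h of -0.09 ± 0.06 and -0.10 ± 0.08 (SE, adjusted p = 0.398 and 0.507). A dimmer RIGI probe set read 5.85, 5.88 and 6.03 log2 units at 24 h and 5.73, 5.68 and 5.78 in vehicle. At 6 h it read 5.72, 5.81 and 5.48. Its 24 h arrays lay above all others without passing, opposite in direction to the set reported. On another dimmer RIGI set the 24 h and vehicle arrays overlapped. IRF7, which amplifies interferon production, read 4.98, 4.85 and 4.97 at 24 h, 4.79, 4.94 and 5.12 at 6 h, and 4.95, 4.82 and 4.50 in vehicle. Vehicle replicate 3 stood alone at the bottom, the groups overlapped, and the log2 changes were 0.18 ± 0.11 at 24 h and 0.19 ± 0.11 at 6 h. IRF9, a DNA-binding part of the complex at the ISRE, had -0.10 ± 0.07 and IRF1, an activator that interferon γ induces, had 0.14 ± 0.07 at 24 h.

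Antigen processing genes had 0 of 4 passing in any comparison. Their log2 changes at 24 h, all negative, were -0.07 ± 0.08 for PSMB8 and -0.03 ± 0.07 for PSMB9, subunits of the immunoproteasome, -0.03 ± 0.06 for the peptide transporter TAP1 and -0.17 ± 0.07 for B2M (SE). Of the 36 members, 16 had a negative log2 change at 24 h. B2M, the light chain of class I molecules, read 12.85, 13.01 and 12.78 at 24 h, 13.07, 13.02 and 13.02 at 6 h, and 13.08, 13.02 and 13.06 in vehicle. Its 24 h arrays lay below all others, replicate 2 only just, and the difference from vehicle did not pass (adjusted p = 0.144 by limma). Without 24 h replicate 2 it passed (-0.24, adjusted p = 0.0462), as it did with an intensity trend (-0.17, adjusted p = 0.0318). A second probe set read 12.69, 12.76 and 12.71 at 24 h, 12.94, 12.90 and 12.90 at 6 h, and 12.97, 13.01 and 12.93 in vehicle, and on it the fall of 0.25 log2 units against vehicle passed (adjusted p = 0.0229 over every probe set).

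**Figure D3:**
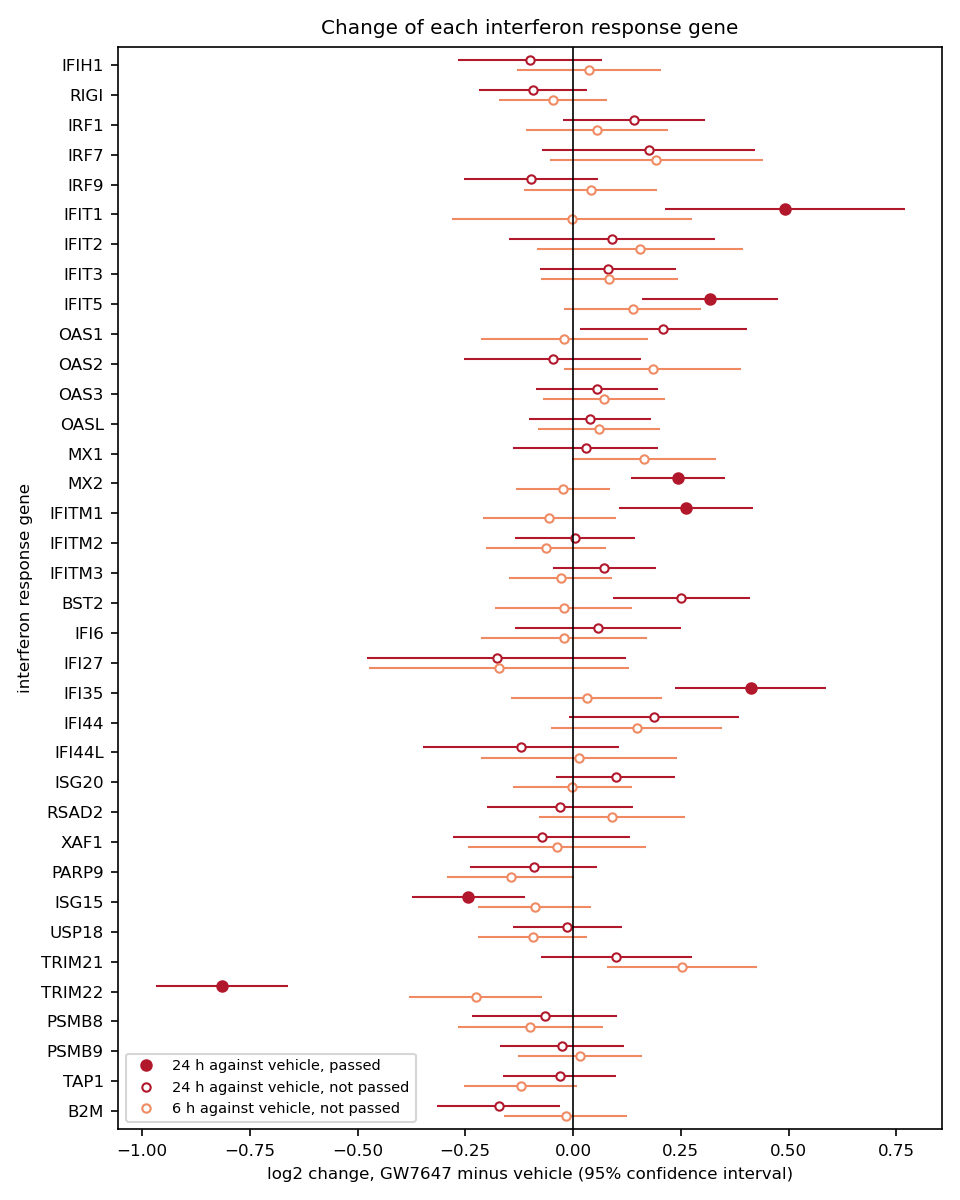
Points are the log2 change of each interferon response gene against vehicle at 24 h (dark red) and 6 h (orange), with 95% confidence intervals from the limma fit, and filled points passed. At 24 h 5 filled points lie right of 0 and 2 left of it, TRIM22 farthest at -0.81, and at 6 h there is none.

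Changes were small. Beyond 0.25 log2 units in either direction there were 6 members at 24 h (16.7%, against 9.42% of all genes) and 1 at 6 h (2.78%, against 5.89%). Beyond 0.5 there was TRIM22 alone at 24 h (2.78%, against 1.43% of all genes). Arrays at 24 h lay entirely above the vehicle arrays for 7 members and entirely below for 4, against 14.0% and 8.95% of all genes. At 6 h this was so for 4 and 1, against 10.5% and 10.3%. Between 24 h and 6 h it was so for 7 and 5, against 19.2% and 13.8%.

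**Figure D4:**
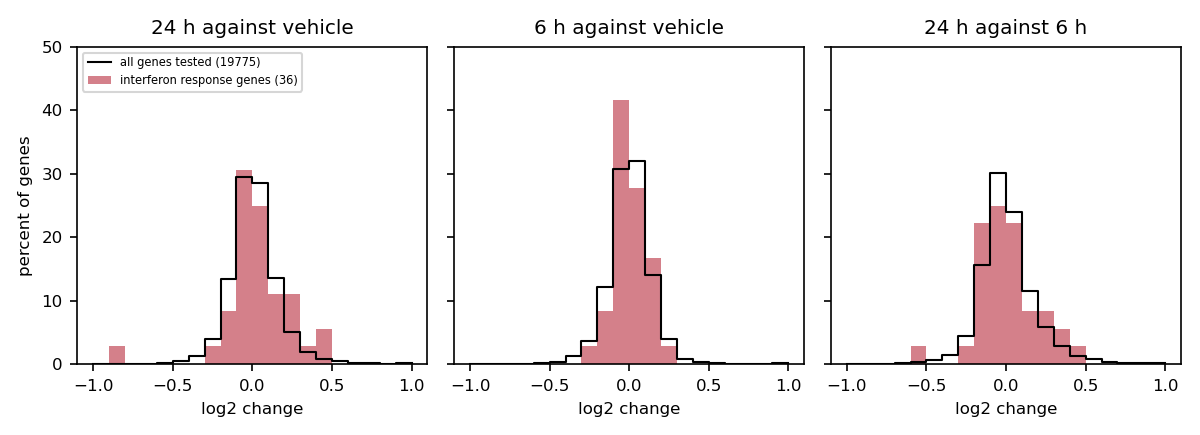
Bars give the percent of the 36 interferon response genes, and the black line the percent of all 19775 genes, in bins of log2 change for each comparison, with changes beyond -1 or 1 counted in the outermost bins. One gene makes a bar of 2.78%, and the single bar far to the left at 24 h against vehicle is TRIM22.

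The spread between replicates bears on such small changes. The median SD over replicates was 0.075 log2 units for the members and for all genes at 24 h, 0.078 and 0.060 at 6 h, and 0.10 and 0.089 in vehicle. Some members held exactly equal values on different arrays of a group, 4 at 24 h (11.1%), 7 at 6 h (19.4%) and 1 in vehicle (2.78%), against 8.84%, 11.2% and 8.36% of all genes. TRIM22 on 6 h replicates 2 and 3 is one such case, and RIGI had 1 value on all 3 arrays at 6 h. The 3′ minus 5′ signal of GAPDH, a sign of RNA integrity, was 0.018 to 0.022 log2 units at 24 h and 0.045 to 0.070 at 6 h, and spanned both in vehicle at -0.0082 to 0.076. That of actin overlapped between groups, at 0.25 to 0.40 at 24 h, 0.27 to 0.30 at 6 h and 0.15 to 0.36 in vehicle. The part of RNA integrity in the differences between 24 h and 6 h was not tested.

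The rest of the pathway was read from 6 lists with 123 genes, of which 113 were measured. None of the 13 measured interferon genes, which encode the ligands, passed in any comparison by limma, and at an unadjusted p under 0.05 there was 1 at 6 h and 0 in the other comparisons. Among 9 measured receptors and kinases, IFNGR1, the ligand-binding chain for interferon γ, was the sole gene to pass. It read 10.39, 10.51 and 10.42 at 24 h, 10.64, 10.73 and 10.61 at 6 h, and 10.39, 10.30 and 10.46 in vehicle. The 6 h arrays lay above all others, by a log2 change of 0.28 ± 0.06 against vehicle (SE, adjusted p = 0.0384), while 24 h and vehicle overlapped. The call did not hold without vehicle replicates 1 or 2, any 1 of the 6 h arrays or 24 h replicate 1 or 3 (adjusted p as high as 0.164), nor after median centring (0.0657), and a probe set without shared probes gave 0.20 (adjusted p = 0.435). For the other chains and kinases the log2 changes at 24 h were -0.10 for IFNAR1, -0.07 for IFNAR2, 0.06 for IFNGR2, 0.09 for JAK1, -0.06 for JAK2 and -0.02 for TYK2, and at 6 h they ran from -0.06 to 0.19.

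Over all 113, 4 were higher at 24 h than in vehicle and 8 lower, which is 3.54% and 7.08% against 5.38% and 2.80% of all genes. The 4 were WARS1, IRF2, LY6E and SHFL, of which LY6E did not pass without any 1 array but vehicle replicate 2 (adjusted p as high as 0.106). Of the 8 lower, only TBK1, PARP14, TNFSF10, TENT5A and CANX are named below. At 6 h 2 were higher and 4 lower, which is 1.77% and 3.54% against 1.64% and 1.91%. Between 24 h and 6 h, 11 were higher and 9 lower, which is 9.73% and 7.96% against 9.23% and 4.57%. The 2 higher at 6 h were 1 without vehicle replicates 2 or 3, or 24 h replicate 3, and 0 without vehicle replicate 1, any 1 of the 6 h arrays or 24 h replicate 1, and the 4 lower were 1 without 6 h replicate 2 and 2 without 6 h replicate 1. The 4 higher at 24 h were 2 without vehicle replicate 3, 6 h replicates 1 or 3, or 24 h replicate 1 or 2. Between 24 h and 6 h the 11 were 7 without 6 h replicate 2, and the 9 were 3 to 5 without 6 h replicates 1 or 2, or 24 h replicate 1 or 3.

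IRF2 and SHFL passed in opposite directions at the 2 times. IRF2, which competes with IRF1 at its sites, read 7.99, 8.05 and 7.97 at 24 h, 7.47, 7.39 and 7.50 at 6 h, and 7.84, 7.71 and 7.77 in vehicle. Its 3 groups did not overlap. It was lower at 6 h (-0.32 ± 0.06, SE, adjusted p = 0.0122 by limma), higher at 24 h (0.23 ± 0.06, adjusted p = 0.0334), and 0.55 ± 0.06 log2 units higher at 24 h than at 6 h (adjusted p = 1.58e-04). The 6 h call did not hold without 6 h replicate 2 (0.0682), and the 24 h call held without vehicle replicate 1 or 6 h replicate 2 and failed without any other array (up to 0.108).

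SHFL, which blocks the ribosomal frameshifting that some viruses need, read 8.77, 8.80 and 8.86 at 24 h, 8.28, 8.27 and 8.27 at 6 h, and 8.54 on each vehicle array. The groups were again apart, with 6 h lowest. Its log2 change was -0.27 ± 0.05 at 6 h (SE, adjusted p = 0.0161 by limma), a call lost without any 1 of the 6 h arrays (up to 0.0720). It was 0.27 ± 0.05 at 24 h against vehicle (adjusted p = 0.00791) and 0.54 ± 0.05 at 24 h against 6 h (adjusted p = 8.74e-05).

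MAVS, the mitochondrial adaptor that RIGI and IFIH1 signal through, read 10.22, 10.25 and 10.25 at 24 h, 9.79, 9.74 and 9.89 at 6 h, and 10.00, 10.13 and 10.15 in vehicle. The 6 h arrays were the lowest and the 24 h arrays the highest. At 6 h the log2 change was -0.28 ± 0.06 (SE, adjusted p = 0.0281 by limma), lost without vehicle replicates 2 or 3, or 6 h replicate 1 or 2 (up to 0.132), and at 24 h against 6 h it was 0.43 ± 0.06 (adjusted p = 9.16e-04). TRIM25, which activates RIGI, was 0.32 ± 0.07 higher at 24 h than at 6 h (adjusted p = 0.0116), a call lost without 6 h replicate 2 (0.0563).

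TBK1, the kinase that phosphorylates IRF3 below MAVS, went the other way. It read 8.74, 8.90 and 8.88 at 24 h, 9.19, 9.20 and 9.09 at 6 h, and 9.32, 9.26 and 9.27 in vehicle. The groups did not overlap, with 24 h lowest. Its log2 change was -0.44 ± 0.06 at 24 h against vehicle (SE, adjusted p = 0.00124 by limma) and -0.32 ± 0.06 against 6 h (adjusted p = 0.00510), and both calls held in all 9 fits that left out 1 array.

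Among further interferon-induced effectors, WARS1, a tryptophan tRNA ligase, read 9.99, 9.93 and 9.96 at 24 h, 9.58, 9.49 and 9.47 at 6 h, and 9.30, 9.45 and 9.37 in vehicle. The 24 h arrays stood above the rest, by 0.59 ± 0.06 log2 units against vehicle (SE, adjusted p = 1.74e-04 by limma) and 0.44 ± 0.06 against 6 h. PARP14, an ADP-ribosylating enzyme that partners PARP9, was lower at 24 h (-0.46 ± 0.07, adjusted p = 0.00280), and so was TENT5A (-0.44 ± 0.07, adjusted p = 0.00190). The mean of the PARP14 probe sets gave -0.17 (adjusted p = 0.0965), and a TENT5A probe set without shared probes gave -0.02 (adjusted p = 0.925). Against 6 h, TENT5A had a log2 change of -0.27 (adjusted p = 0.0165), a call lost without 6 h replicate 1 or 24 h replicate 2 or 3 (up to 0.0749), and the probe set without shared probes gave 0.0091 (adjusted p = 0.958). LY6E, a lipid-anchored surface protein, was 0.54 ± 0.11 log2 units higher at 24 h than at 6 h (adjusted p = 0.00689).

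The death ligand TNFSF10 had the largest change among the pathway genes. It read 7.49, 7.89 and 7.71 at 24 h, 6.85, 6.78 and 6.81 at 6 h, and 8.19, 8.05 and 8.18 in vehicle. Its log2 change was -0.44 ± 0.09 at 24 h (SE, adjusted p = 0.0112 by limma) and -1.33 ± 0.09 at 6 h (adjusted p = 1.65e-05). The chemokine CXCL9 was higher at 6 h (0.36 ± 0.08, adjusted p = 0.0441), a call lost without vehicle replicates 1 or 3, any 1 of the 6 h arrays or 24 h replicate 1 (up to 0.155).

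**Figure D5:**
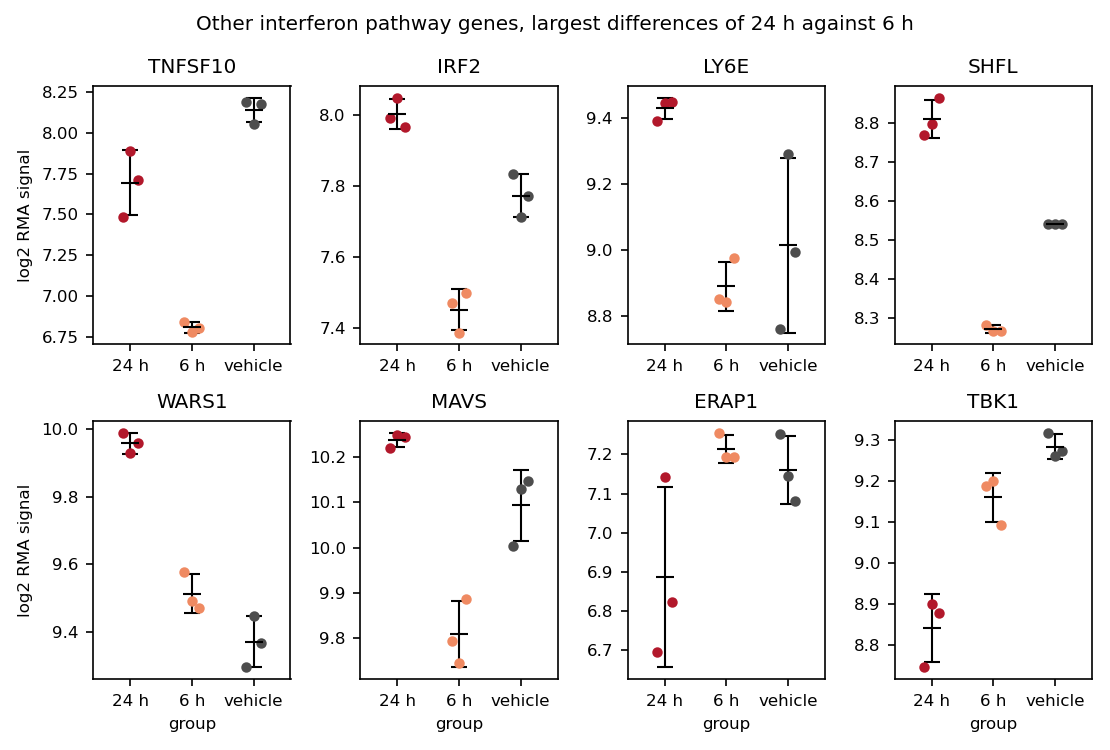
Points are log2 RMA signals of single arrays for the 8 other interferon pathway genes with the largest differences of 24 h against 6 h among those named for that comparison (CXCL9, named for 6 h, is not drawn), with the group mean and 1 SD as bars (n = 3). IRF2, SHFL and MAVS are lowest at 6 h and highest at 24 h, TNFSF10 is lowest at 6 h and highest in vehicle, and TBK1 is lowest at 24 h. The vertical axes differ between genes and do not start at 0.

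Antigen presentation genes outside the members numbered 19 measured, of which 1 was lower at 24 h, 0 passed at 6 h, and 2 were higher and 1 lower at 24 h against 6 h. The 1 lower at 24 h was 5.26% of the 19, against 2.80% of all genes, and 0 were higher, against 5.38%. The 0 at 6 h stand against 1.64% higher and 1.91% lower of all genes. Against 6 h the shares were 10.5% higher and 5.26% lower, near the 9.23% and 4.57% of all genes. CANX (calnexin), a chaperone of class I heavy chains, was the one lower at 24 h (-0.19 ± 0.05, SE, adjusted p = 0.0458 by limma). This call held only without vehicle replicate 2 among the fits that left out 1 array (up to 0.132). TAPBP (tapasin), which loads peptides, and HLA-E were higher at 24 h than at 6 h by 0.28 ± 0.08 and 0.21 ± 0.06 (adjusted p = 0.0339 and 0.0362), both lost without any 1 of the 6 h or 24 h arrays (up to 0.140 and 0.104). ERAP1, which trims peptides, was lower by 0.33 ± 0.10 (adjusted p = 0.0499), lost without any 1 array but 24 h replicate 2 (up to 0.164), and a probe set without shared probes gave -0.06. The inhibitors numbered 9 measured, and besides IRF2 the suppressor CISH was lower at 24 h than at 6 h (-0.30 ± 0.07, adjusted p = 0.0200), a call lost without 6 h replicates 1 or 2, or 24 h replicate 2 or 3 (up to 0.0935).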

How the data were processed

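The values were the deposited log2 probe set signals of 9 arrays, made by the authors with RMA per the submitters' processing notes. No source used here gives its version or the chip definition. They ran from 2.66 to 15.0, with 0 missing and array medians from 5.61 to 5.68, and were used unchanged. Of 54675 probe sets, 41091 were no controls and had 1 gene symbol, and the one with the highest mean represented each of 19775 genes, with no filter on signal.

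A linear model of the 3 groups over the 9 arrays was fitted with limma 3.58.1 in R 4.3.3 (package data.table, version 1.17.8), and 3 comparisons were tested two-sided at a Benjamini-Hochberg adjusted p under 0.05. An exact permutation test of 3 against 3 cannot go under 0.10. Alternatives were another block, fit, variance model, filter, probe set rule, normalization or threshold, and leaving out each array. Adjustment over every probe set was added after seeing the data.

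The members and lists were chosen with earlier results of these data known. Values of every array are given for members that passed, for the 3 with the largest change in each comparison and the 3 with the highest mean. Values of OAS1 and of other probe sets of IFIT3, B2M, RIGI, OAS1 and OAS3 were added after they were seen. From each pathway list at most 4 passing genes per comparison are named, and 7 receptor chains and kinases whatever their test. Outside this limit, LY6E and SHFL are also given at 24 h against vehicle, and CXCL9 and TENT5A at 24 h against 6 h. The pathway genes higher at 24 h than in vehicle are therefore all named, while those lower are named only in part. Promoters are from RefSeq (GRCh38.p14).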

Additional observations from a re-analysis of the deposited data

Results flagged for a closer look

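For 6 interferon response genes the change from vehicle at 24 h differed from that at 6 h, which is the limma comparison of 24 h against 6 h. The 5 higher were 13.9% of the members against 9.23% of all genes, and the 1 lower was 2.78% against 4.57%. On the log2 scale the change at 24 h minus that at 6 h was 0.49 for IFIT1, 0.38 for IFI35, 0.32 for IFITM1, 0.27 for MX2, 0.27 for BST2 and -0.59 for TRIM22. In the 5 genes with a positive difference the change at 6 h lay between -0.06 and 0.03.

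Among other pathway genes the same difference was 0.88 for TNFSF10, 0.55 for IRF2, 0.54 for SHFL, 0.54 for LY6E, 0.44 for WARS1, 0.43 for MAVS, 0.32 for TRIM25, 0.28 for TAPBP and 0.21 for HLA-E. It was -0.39 for CXCL9, -0.33 for ERAP1, -0.32 for TBK1, -0.30 for CISH, -0.27 for TENT5A and -0.22 for IFNGR1. The adjusted p of the limma test of each of these differences was under 0.05. Of the 113 measured, 9.73% were higher and 7.96% lower in this comparison, against 9.23% and 4.57% of all genes.

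Probe sets outside the 36 used gave a passing result for 2 members that did not pass on the probe set reported. The second B2M set had a log2 change of -0.25 at 24 h against vehicle (adjusted p = 0.0229 over every probe set) and -0.20 against 6 h (adjusted p = 0.0497). The IFIT3 set that is dimmer had 0.65 at 24 h against 6 h (adjusted p = 0.00782). Some other sets went against the direction of the set reported without passing, as for RIGI and OAS3 at 24 h against vehicle. Over every probe set, 3.37% were higher and 2.30% lower at 24 h against vehicle, and 6.20% and 3.51% at 24 h against 6 h.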

How the results depend on the processing

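Of the calls of named genes and markers, each recomputed in 17 to 19 alternatives, 1 reversed its direction, TENT5A at 24 h against 6 h, with 0.0091 (adjusted p = 0.958) without shared probes. TRIM22, MX2 and IFI35 passed at 24 h in all 9 fits that left out 1 array, against vehicle (3 of 7 calls) and against 6 h (3 of 6). TRIM22, IFI35, IFIT5, IFITM1 and ISG15 have no probe set without shared probes and were not measured in that alternative. With a replicate block in the fit, the members at 24 h against vehicle were 3 higher and 1 lower, with IFIT1 (0.0572), IFITM1 (0.0511) and ISG15 (0.0518) lost, and BST2 was lost against 6 h (0.0582). With this replicate block the other pathway genes at 6 h were 0 higher and 2 lower. Same-numbered arrays did not deviate together (r from -0.20 to 0.086, 0 of 9 pairs over 0.1).

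Members at 24 h against vehicle (5 higher, 2 lower) were 2 and 1 when the fit held the compared groups alone, 2 and 0 without shared probes (26 measured), 1 and 1 at an adjusted p under 0.01, and 1 lower above the median signal (21 measured). Leaving out 1 array gave 2 to 5 higher (2 without vehicle replicate 3, and 3 without vehicle replicate 1, 6 h replicate 2 or 3 or 24 h replicate 2) and 1 to 2 lower (1 without vehicle replicate 2 or 3, 6 h replicate 1 or 3 or 24 h replicate 1 or 3). Against 6 h (5 and 1) they were 3 and 0 without shared probes and 2 higher at 0.01, and 2 were lower with an intensity trend or after quantile normalization, with 2 to 5 higher (2 without 6 h replicate 2 or 3, and 3 without 24 h replicate 3) and 1 to 2 lower (2 without 24 h replicate 2) when 1 array was left out. At 6 h (0 and 0) 1 was higher above the median signal, TRIM21 (adjusted p = 0.0491), and leaving out 1 array gave 0 to 0 higher and 0 to 1 lower.

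The members' median was -0.0068 at 24 h and 0.039 at 6 h without shared probes. Against 6 h it was -0.054 without shared probes, 0.080 above the median signal and 0.028 after centring. Leaving out 1 array gave 0.0017 to 0.049 at 24 h, -0.029 to 0.034 at 6 h and -0.023 to 0.030 against 6 h, so its sign is not settled.

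Other pathway genes at 24 h (4 higher, 8 lower) had 2 higher with only the compared groups or over every probe set and 2 and 5 at 0.01, with 2 to 3 and 6 to 9 when 1 array was left out. At 6 h (2 and 4) they had 0 higher with only the compared groups, without shared probes (94 measured) or over every probe set. They had 1 higher above the median signal (69 measured) or after centring, and 0 and 1 at 0.01. With an intensity trend 7 were lower, and leaving out 1 array gave 0 to 3 and 1 to 4. Against 6 h (11 and 9) they had 17 higher above the median signal (69 measured) and 7 and 3 at 0.01, with 7 to 13 and 3 to 8 when 1 array was left out. The share of all genes higher under that signal filter was not computed.

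Over all genes, the calls higher and lower were 1063 and 553 at 24 h, 324 and 377 at 6 h, and 1826 and 903 between them. Quantile normalization gave 1031 and 731, 419 and 328, and 1457 and 1207, and median centring 1087 and 411, 255 and 416, and 2175 and 653. Signals near the low end of the array, as for IFI44, IFI44L and RSAD2, limit what can be seen, and a p over the threshold does not show that a gene stayed level.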
